A study of Cynoglossus semilaevis with 6 samples.

Results

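The gene described here is abat, which encodes 4-aminobutyrate aminotransferase, also called GABA transaminase. It is 1 of 34751 features in the deposited expression table of half-smooth tongue sole (Cynoglossus semilaevis) liver, and it was chosen by its identifier, XM_008330509.1, with its difference between the salinity groups already known. All 6 libraries of the series were used. The LS_L group was held at 15 ppt and the HS_L group, the control, at 30 ppt, for 60 days, with 3 libraries in each group. All fish were females, labelled 10 months of age, that had been reared at 30 ppt and 20 °C on a prepared diet. Each library was made from a pool of 3 livers from 1 tank, so the spread between libraries is a spread between tank pools and no single fish was measured. No strain was given for the fish, and salinity was the only factor that the labels vary between the groups.

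GABA transaminase is a mitochondrial enzyme that uses pyridoxal phosphate, the active form of vitamin B6, to move the amino group of GABA onto 2-oxoglutarate. The products are succinic semialdehyde, which is oxidised to succinate and enters the citric acid cycle, and glutamate. In mammals the enzyme is abundant in brain and in liver, it also acts on beta-alanine, and in human cells it has been linked to the upkeep of mitochondrial DNA. GABA itself is formed from glutamate by glutamate decarboxylase or, by a second route, from the polyamine putrescine.

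On the Cse_v1.0 build, the deposited abat feature lies on the plus strand of chromosome 17, from 13669893 to 13677240, with a transcript length of 2319 bases. The RefSeq gene table of the same build places the protein-coding gene abat from 13669814 to 13676958 on chromosome 17. No other gene feature overlapped it on either strand, apart from a tRNA-Cys entry whose listed span, 6380 to 22430289, covers most of the chromosome and which held at most 1 read in any library. Between 16176689 and 19428740 reads per library could be recovered from the deposited values, and 99.7% or more of the nonzero values of each library came out whole. Levels are given below as normalized reads, which are reads divided by a size factor for each library, or, where genes are compared with each other, as RPKM (reads corrected for feature length and library depth) scaled in the same way.

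Transcripts of abat were lower in every 15 ppt pool than in every 30 ppt pool. The LS_L libraries held 62, 20 and 12 reads of abat, and the HS_L libraries held 341, 329 and 194. After normalization these were 51.5, 20.0 and 13.8 reads in the LS_L group and 312, 351 and 206 in the HS_L group. The groups did not overlap, and the lowest HS_L library was 4.00-fold above the highest LS_L library. The LS_L mean was 28.4 ± 20.2 normalized reads (SD, n = 3), against a mean of 290 ± 75.1 (SD, n = 3) for HS_L, so the HS_L mean was 10.2-fold the LS_L mean. With each library left out in turn, that ratio lay between 8.10 and 17.1, the highest being the value without LS_L_1. Because abat was picked for this difference, the values are a description and no test of them is given.

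The size of the log2 difference depended on how low values were treated. On the scale used for the whole table, log2 of scaled RPKM plus 1, the difference (LS_L minus HS_L) was -2.25, while that of the mean log2 normalized reads, with nothing added, was -3.54. On the first scale 39 of 9302 features had a more negative difference, and the median over all these features was 0.03. The pooled SD of abat within the groups was 0.37 on that scale, beside a median of 0.32 for all features tested.

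**Figure D1:**
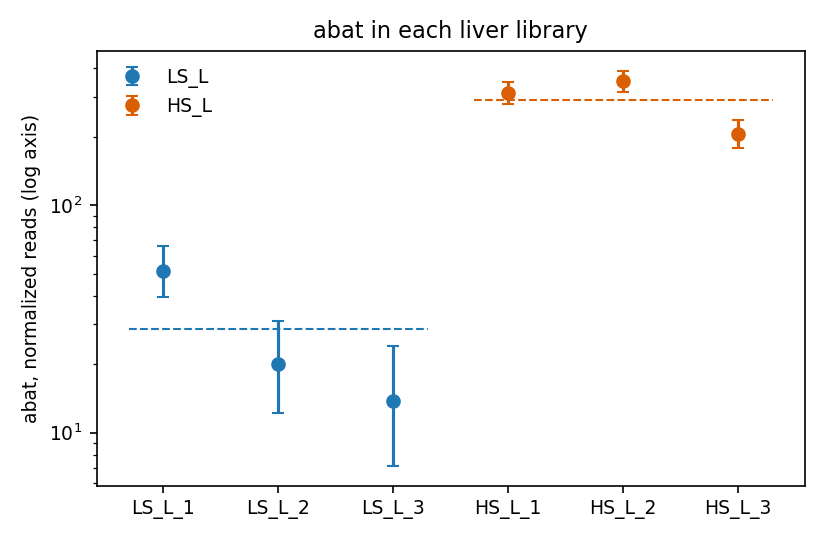
Normalized reads of abat (log axis) in each of the 6 liver libraries. Points are libraries, bars are exact 95% Poisson intervals of the read count, which cover counting error only, and dashed lines are group means. The 3 LS_L libraries lie between 13.8 and 51.5 and the 3 HS_L libraries between 206 and 351.

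The order of the 6 libraries, from the highest level of abat to the lowest, was HS_L_2, HS_L_1, HS_L_3, LS_L_1, LS_L_2 and LS_L_3. Exact 95% Poisson intervals, which cover counting error only, overlapped for HS_L_2 and HS_L_1 and for LS_L_2 and LS_L_3. They did not overlap for the other neighbours in that order. Within the LS_L group the pools thus differed by more than counting error, with LS_L_1 at 51.5 normalized reads (interval 39.5 to 65.99) and LS_L_3 at 13.8 (7.15 to 24.2). Relative spread was wider in the low group, with a coefficient of variation of 71.0% in the LS_L group and 25.9% in the HS_L group. In each library's own ranking of the features that had reads, abat lay above 31.7% to 50.5% of them in the LS_L libraries and above 73.1% to 82.2% in the HS_L libraries. It was therefore a transcript of middle or low rank at 15 ppt and of upper rank at 30 ppt.

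As a sum, the matched hepatocyte transcripts were abundant in every library. All 13 matched hepatocyte features had reads, their summed level ranged from 1577730 to 3083933 normalized reads in the LS_L group and from 2016262 to 4130956 in the HS_L group. Of the 13, 0 passed an unadjusted p of 0.05 in limma, beside 3.72% higher and 2.86% lower over all features tested. The apolipoprotein gene apoeb, named after its values were seen, was higher in every LS_L library than in every HS_L library, with a log2 difference of 1.05 ± 0.45 (SE, unadjusted p = 0.054, limma). Its direction was not that of the list, since the median log2 difference of the 13 features was -0.35. Single hepatocyte features varied between the pools, which the sum does not show. The gene ttr, also named after its values were seen, was at 446, 547 and 482 normalized reads in the LS_L group. In the HS_L group ttr was at 18.3, 41.6 and 843. Markers of other tissues varied between the pools as well. In bulk RNA, fewer cells of a type and less RNA per cell cannot be told apart.

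Exocrine pancreas, which in many fishes lies within or along the liver, was represented by 5 matched features, all with reads. Their summed level was 498 to 2694 normalized reads in the LS_L group and 1906 to 79764 in the HS_L group. The trypsinogen gene prss1 stood at 148, 862 and 1012 normalized reads at 15 ppt and 8160, 37237 and 491 at 30 ppt. Both abat and prss1 were high in HS_L_1 and HS_L_2, while HS_L_3 held less prss1 than LS_L_2 and LS_L_3. The part of pancreatic RNA in the difference of abat was not tested. The median log2 difference of the 5 features was -3.02, beside -2.25 for abat on the same scale. The 1 added on this scale shrinks the difference of abat, at 0.68 scaled RPKM in the LS_L group, more than that of abundant features. With 0.1 added in place of 1, abat was at -3.31, so these values do not show which difference was larger. The pancreatic carboxypeptidase gene cpb1 was the only 1 of the 5 below an unadjusted p of 0.05 (0.036, adjusted p = 0.76, limma). Over all features 3.72% were higher and 2.86% lower at that p.

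Skeletal muscle markers summed to 19.6 to 791 normalized reads in the LS_L group and 96.5 to 1319 in the HS_L group. The muscle creatine kinase gene ckma was at 359, 1.00 and 0 normalized reads in LS_L, compared with 662, 711 and 30.8 in HS_L. LS_L_1, the LS_L pool with the most abat, was also the LS_L pool with the most muscle RNA, and it held more ckma than HS_L_3. Ovary and egg markers summed to 14.1 to 3758 and 127 to 3631 normalized reads in the LS_L and HS_L groups. The oocyte gene zar1 was highest in LS_L_2, HS_L_1 and HS_L_2, at 621, 791 and 250 normalized reads, and was at or below 35.0 in the other 3 libraries. The median log2 difference was -1.25 over 4 tested muscle features and -1.24 over 6 tested ovary and egg features. The part of muscle and ovary RNA in the difference of abat was not tested.

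The neuronal list did not overlap between the groups, with sums of 77.2 to 92.0 normalized reads in the LS_L group and 100 to 227 in the HS_L group. Only 4 of its 28 features had reads, and most of the sum came from the axonal growth gene gap43, at 73.1, 88.0 and 80.7 normalized reads in the LS_L pools, against 221, 94.9 and 172 in HS_L (unadjusted p = 0.035, adjusted p = 0.76, limma). The gene gap43 was the only 1 of these features tested. Over all features tested, 4.91% were lower in the LS_L group without overlap, and 2.86% were lower at an unadjusted p of 0.05. Beside these shares, 1 feature says little. The neuronal markers elavl3 and elavl4 were listed at 0. Each of their transcripts overlaps another feature in the annotation, so their reads may not have been counted. The part of this list in the difference of abat was not tested. Endocrine pancreas summed to 1.15 to 13.01 and 6.37 to 73.2 normalized reads, kidney tubule to 27.7 to 199 and 41.6 to 145, red blood cells to 246 to 324 and 180 to 515, and leukocytes to 5263 to 32246 and 2509 to 9455, in the LS_L and HS_L groups. These 4 lists overlapped between the groups.

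**Figure D2:**
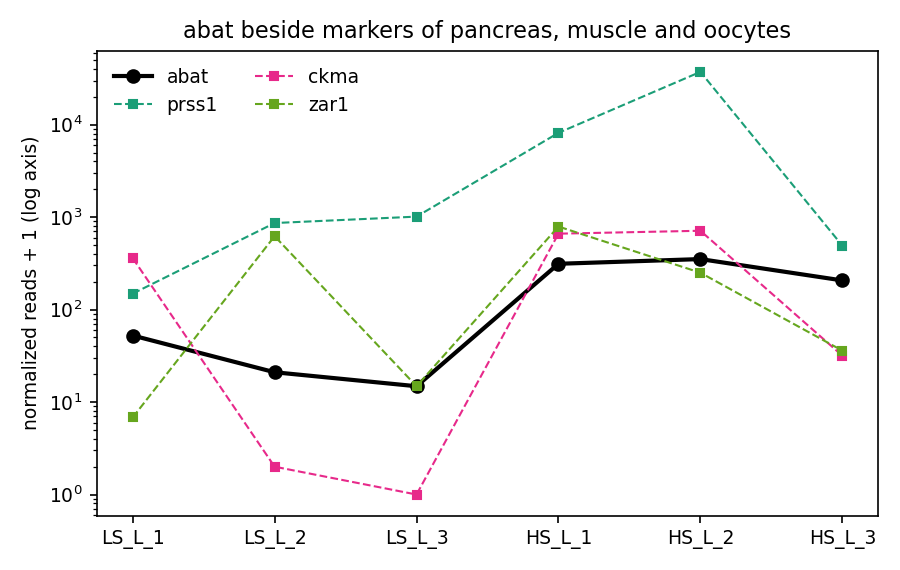
Normalized reads plus 1 (log axis) of abat, the pancreatic gene prss1, the muscle gene ckma and the oocyte gene zar1 in each library. Lines join the values of a gene and stand for no order of the libraries. The groups of abat do not overlap, while prss1, at 491 in HS_L_3 and 862 and 1012 in LS_L_2 and LS_L_3, overlaps between the groups, as do ckma and zar1.

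To see whether the genes around GABA transaminase in metabolism differed with salinity, 9 lists of pathway genes were read from the fit over all features. Apart from abat they matched 157 features, of which 79 had a mean scaled RPKM of at least 1 and were tested. None of the 79 met the study's thresholds, an adjusted p below 0.05 and a log2 fold change beyond 1, in limma or in limma-voom, and 4 of 9302 features did so in the whole table (0.043%). At an unadjusted p of 0.05, 4 of the 79 were higher and 3 were lower in the LS_L group, beside 346 (3.72%) and 266 (2.86%) of all 9302 features. Of these 7, aacs, hmgcs1, acat2 and the GABA transporter LOC103389703 are on the list of DEGs that the study drew from these libraries and are not independent evidence. Outside that list 1 of 75 was higher and 2 were lower, shares of 1.33% and 2.67%. The shares over all 9302 features still include the study's DEGs, so they are no like measure for these 75. The groups were apart, with no overlap, in 12 of the 79 features (9 higher and 3 lower at 15 ppt), beside 724 (7.78%) higher and 457 (4.91%) lower of all 9302. The median log2 difference of the 79 features was 0.07, beside 0.03 for all features. With the replicate number as a block, the thresholds called 0 features in the whole table, and the pathway features lower at an unadjusted p rose from 3 to 7. Without LS_L_1, 3 pathway genes (aacs, hmgcs1 and acat2) met both thresholds, beside 17 features in the whole table. With library size as the only scaling 2 did (aacs and hmgcs1), beside 10 in the whole table.

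Among the genes that make and break down GABA, 13 features were matched besides abat, 8 averaged above 3 normalized reads and 7 were tested. None of the 7 passed an unadjusted p of 0.05, beside 3.72% higher and 2.86% lower over all features. Their median log2 difference was -0.27. Glutamate decarboxylase, the enzyme that makes GABA from glutamate, was represented by gad2, which was close to the detection limit at 2.49, 3.00 and 4.61 normalized reads at 15 ppt and 10.1, 5.33 and 8.49 at 30 ppt. Its groups did not overlap, at levels too low to enter the test. Over the features that were tested, 4.91% were lower in the LS_L group without overlap. The gene aldh5a1 encodes succinic semialdehyde dehydrogenase, the step directly after GABA transaminase. It stood at 50.6, 53.0 and 86.5 normalized reads in LS_L, compared with 66.8, 73.6 and 130 in HS_L, a log2 difference of -0.27 ± 0.24 (SE, adjusted p = 0.92, limma). Its groups overlapped, and its value is uncertain, since the counted feature, XR_522557.1, overlaps a second aldh5a1 transcript that was listed at 0.

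Glutamate, the other product of the reaction, is handled by glutamate dehydrogenase, glutaminase and glutamine synthetase. The glutamate dehydrogenase gene glud1b was the most abundant of the list, at 15965, 32327 and 43951 normalized reads in the LS_L pools, against 17920, 7583 and 39565 in HS_L. Its log2 difference was 0.69 ± 0.66 (SE), and that of its paralog glud1a was -0.09 ± 0.50 (SE). The glutaminase gene glsl differed by -0.36 ± 0.23 (SE). The glutamine synthetase gene glula stood at 985, 922 and 814 normalized reads at 15 ppt and 1820, 1647 and 785 at 30 ppt. The groups of glula overlapped because of HS_L_3, and its log2 difference was -0.54 ± 0.34 (SE). Of the putrescine route, the ornithine decarboxylase gene odc1 differed by 0.25 ± 0.55 (SE), and aldh9a1b, an aminobutyraldehyde dehydrogenase gene, by -1.04 ± 0.66 (SE). Adjusted p-values of these 6 genes were between 0.86 and 0.98 (limma). Unadjusted p-values below 0.05 appeared for aldh9a1b with the replicate block (0.017), for glula without HS_L_3 (0.0081) and for odc1 without HS_L_2 (0.013). Leaving out single libraries moved these differences both ways. That of aldh9a1b ranged from -0.39 without LS_L_1 to -1.49 without HS_L_1 and was -0.59 without HS_L_2. For glud1b the range was 0.09 without HS_L_2 to 1.28 without HS_L_3, for glula -0.32 without HS_L_1 to -0.91 without HS_L_3, and for glsl -0.17 without HS_L_3 to -0.51 without HS_L_1. The transcripts of mao, a monoamine oxidase gene, were listed at 0 but each overlaps another feature, so their level is not known.

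Carriers that bring GABA into cells were represented by 3 tested features. LOC103389703, which the study's table names as a relative of GABA transporter 2, was at 384, 539 and 552 normalized reads in LS_L, compared with 965, 1085 and 1238 in HS_L. Its groups did not overlap, and over all features 4.91% were lower in the LS_L group without overlap. The log2 difference was -1.04 ± 0.20 (SE, unadjusted p = 0.0014, adjusted p = 0.32, limma), so it was not called over all features. At an unadjusted p of 0.05, 2.86% of all features were lower. LOC103389703 is among the DEGs that the study drew from these libraries, so its difference is not independent evidence. This gene lies on chromosome 14, from 14889373 to 14905150. The GABA carrier gene slc6a13 was matched by 2 adjacent features on chromosome 6. The first, XM_008312219.1, was at 364, 779 and 965 normalized reads in the LS_L pools, against 1109, 1039 and 952 in HS_L, a log2 difference of -0.62 ± 0.34 (SE, adjusted p = 0.83, limma). Without LS_L_3 the difference was -0.88 (unadjusted p = 0.043, limma), and without LS_L_1 it was -0.24 (unadjusted p = 0.30, limma). The second, XM_008312220.1, differed by -0.33 ± 0.48 (SE, adjusted p = 0.96, limma). In both features of slc6a13 the groups overlapped, and LS_L_1 was the lowest library.

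Receptors of GABA were near the detection limit in these livers. The GABA-B receptor genes gabbr1b and gabbr2 had group means of 9.39 and 3.26 normalized reads in the LS_L group and 6.96 and 3.20 in the HS_L group. Among the GABA-A receptor subunit genes, gabrp had group means of 13.9 and 16.4 and gabrr2a of 3.26 and 6.17 normalized reads in the LS_L and HS_L groups. The plasma membrane carrier gene slc6a1b averaged 2.44 and 5.13 normalized reads. None of these 5 features reached the level set for testing, and the groups of each overlapped. Of the 26 matched carrier and receptor features, 8 averaged above 3 normalized reads, namely the 3 tested carriers and these 5.

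**Figure D3:**
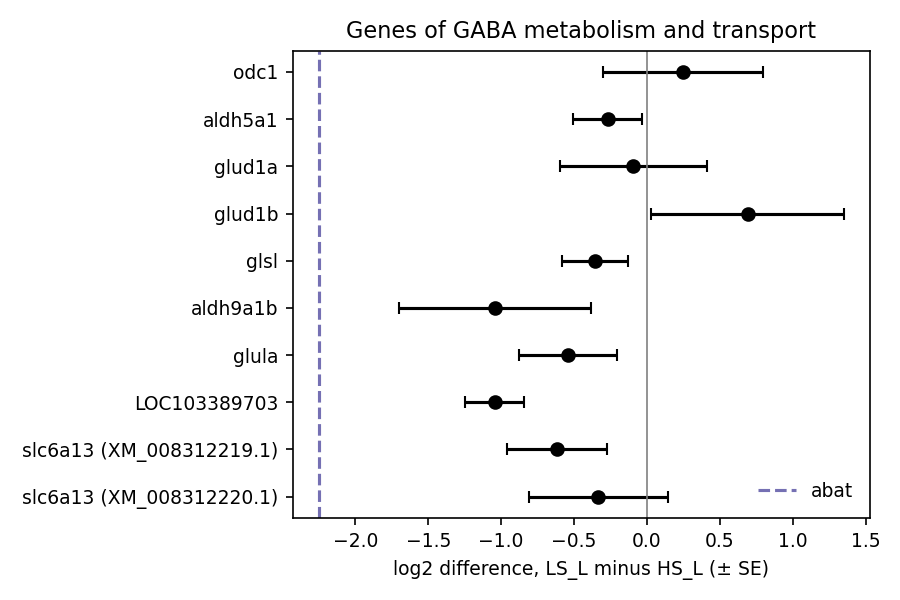
Log2 difference (LS_L minus HS_L, with SE) of the 10 tested features of GABA synthesis, breakdown and transport. The dashed line is abat, at -2.25, shown as a description. LOC103389703, at -1.04, is the only feature with an unadjusted p below 0.05 (limma), and it is among the study's DEGs from these libraries. Over all features 3.72% were higher and 2.86% lower at that p.

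GABA transaminase belongs to a large family of aminotransferases that depend on pyridoxal phosphate. In the HS_L group abat ranked 9 of the 13 family members with a mean scaled RPKM of at least 1, at 6.92 ± 1.79 scaled RPKM (SD, n = 3), close to phykpl, a phosphohydroxylysine lyase gene of the same family, at 8.29. In the LS_L group it was at 0.68 ± 0.48 scaled RPKM (SD, n = 3), and it entered this ranking only through its level in the HS_L group, so its place at 15 ppt is not given. The family genes agxta and oat were listed too low to be ranked. Each of their transcripts overlaps another feature, so their reads may not have been counted. Of the ranked members, the most abundant were the liver enzymes tyrosine aminotransferase (tat, 576 and 614 scaled RPKM in the LS_L and HS_L groups), alanine-glyoxylate aminotransferase (agxtb, 444 and 225) and aspartate aminotransferase (got1, 187 and 185). The value of agxtb in the HS_L group was set by HS_L_2, at 8.36 scaled RPKM, beside 365 and 302 in HS_L_1 and HS_L_3.

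Of the 12 other tested aminotransferase features, etnppl, an ethanolamine-phosphate phospho-lyase gene, was the only 1 with an unadjusted p below 0.05. It was at 1020, 1344 and 1451 normalized reads at 15 ppt and 1647, 3058 and 1977 at 30 ppt, without overlap. Its log2 difference was -0.76 ± 0.29 (SE, unadjusted p = 0.037, adjusted p = 0.76, limma). The p was above 0.05 without HS_L_2 (0.089), and also without HS_L_3 and without any 1 of the LS_L libraries, where it ranged from 0.050 to 0.099. The gene agxt2, whose mammalian enzyme also takes the amino group from beta-alanine, was at 1447, 1554 and 1818 normalized reads in LS_L, compared with 1555, 1659 and 1327 in HS_L, with a log2 difference of 0.08 ± 0.21 (SE). The median of the 12 features was -0.01. Over all features 3.72% were higher and 2.86% lower at an unadjusted p of 0.05, and 4.91% were lower in the LS_L group without overlap. None of the 3 tested vitamin B6 features passed an unadjusted p of 0.05, among them pnpo, the pyridoxal phosphate synthase gene, at -0.16 ± 0.22 (SE).

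**Figure D4:**
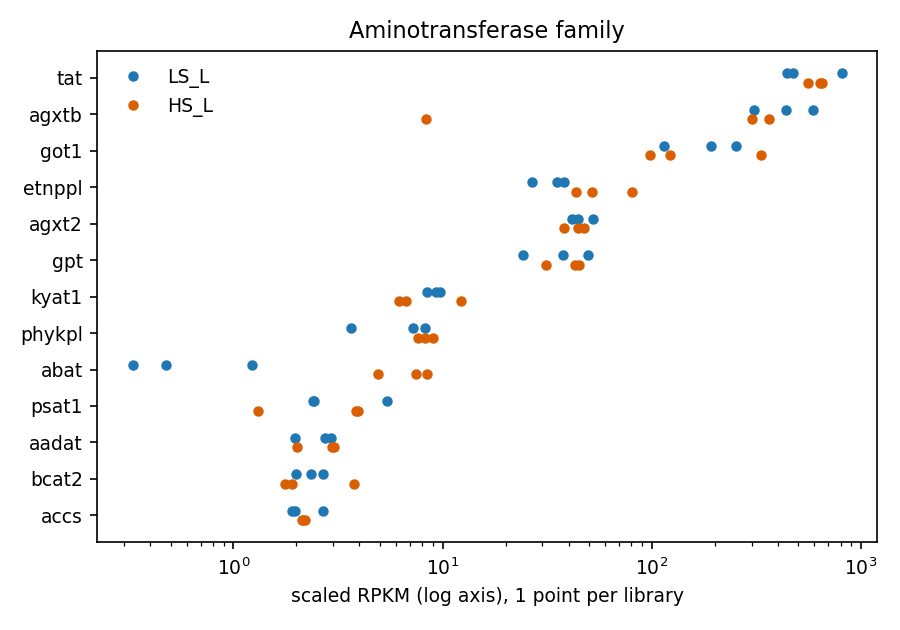
Scaled RPKM (log axis) of abat and 12 other aminotransferase family genes, ordered by their mean in the HS_L group, with 1 point for each library. The 3 LS_L points of abat, from 0.33 to 1.23, lie below its 3 HS_L points, from 4.92 to 8.38.

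In the breakdown of beta-alanine and pyrimidines, cndp1, a carnosine dipeptidase gene whose enzyme releases beta-alanine, was the only 1 of 8 tested features with an unadjusted p below 0.05. It was at 4516, 4037 and 4770 normalized reads in the LS_L pools, against 6532, 30029 and 8444 in HS_L, without overlap and with HS_L_2 far above the rest. The log2 difference was -1.41 ± 0.56 (SE, unadjusted p = 0.041, adjusted p = 0.76, limma), and the p rose above 0.05 when any 1 of the LS_L libraries was left out, ranging from 0.075 to 0.097. Without HS_L_2 the difference was -0.74 (unadjusted p = 0.032, limma). The other enzymes of that route, dpys and upb1, which convert dihydropyrimidines to beta-alanine, differed by -0.10 ± 0.36 and 0.29 ± 0.31 (SE). Over all features 4.91% were lower in the LS_L group without overlap. At an unadjusted p of 0.05, 3.72% of all features were higher and 2.86% lower.

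Valine breakdown, which passes through a semialdehyde and in which human GABA transaminase has been given a part, held 15 tested features. The kinase gene bckdk, whose product inhibits the branched-chain ketoacid dehydrogenase, was the only 1 with an unadjusted p below 0.05. It was at 404, 256 and 239 normalized reads at 15 ppt and 200, 114 and 181 at 30 ppt, without overlap. It was higher at 15 ppt by 0.68 ± 0.26 on the log2 scale (SE, unadjusted p = 0.033, adjusted p = 0.76, limma), and the p was above 0.05 without LS_L_1 (0.095), HS_L_2 (0.093) or HS_L_3 (0.055), and with library size as the only scaling (0.12). Another feature overlaps it on the same strand, so its count is uncertain. The propionate and valine enzyme gene aldh6a1, a semialdehyde dehydrogenase, differed by -0.50 ± 0.45 (SE). Of the 15 features 3 were higher in the LS_L group without overlap, beside 7.78% of all features. At an unadjusted p of 0.05, 3.72% of all features were higher and 2.86% lower.

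Butanoate metabolism, in which GABA transaminase is placed together with ketone body enzymes, had the most features below an unadjusted p of 0.05 of the 9 lists. Of its 12 tested features 4 were higher in the LS_L group without overlap, beside 7.78% of all features. At an unadjusted p of 0.05, 3 of the 12 were higher in that group, and none was lower. Over all features 3.72% were higher and 2.86% lower at that p. The acetoacetyl-CoA synthetase gene aacs was at 779, 2152 and 2207 normalized reads in LS_L, compared with 116, 131 and 197 in HS_L. The HMG-CoA synthase gene hmgcs1 and the acetyl-CoA acetyltransferase gene acat2 differed by 3.13 ± 0.39 and 2.69 ± 0.44 (SE), with adjusted p-values of 0.072 and 0.19 (limma). All 3 are cytosolic enzymes that also supply sterol synthesis, and all 3 were among the DEGs of the study. Their direction was opposite to that of abat. Of the citric acid cycle, where succinate from GABA enters, 0 of 15 tested features passed an unadjusted p of 0.05, with a median log2 difference of 0.15. The list for upkeep of mitochondrial DNA also had 0 of 8, with a median of 0.13. Beside the shares over all features, a count of 0 in lists of this size says little. In the citric acid cycle list, 2 of the 15 tested features were higher in the LS_L group without overlap, beside 7.78% of all features. The transcripts of sdha, a succinate dehydrogenase gene of that list, were listed at 0 but each overlaps another feature, so their level is not known. In limma-voom the 7 pathway calls at an unadjusted p of 0.05 were again 4 higher and 3 lower.

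The tested chromosomal neighbours of abat had log2 differences from -0.08 to 0.28. Of the 5 features on each side, 4 were tested, and 0 passed an unadjusted p of 0.05 in limma, in limma-voom or in any other fit tried. Over all features 3.72% were higher and 2.86% lower at that p in limma, so 0 of 4 says little. The methyltransferase-like gene mettl22 ends 424 bases before abat starts, on the same strand, and was at 720, 758 and 780 normalized reads in the LS_L pools, against 522, 565 and 912 in HS_L. Its log2 difference was 0.21 ± 0.25 (SE). On the other side prmt1, an arginine methyltransferase gene that starts 2469 bases after the end of abat, differed by 0.28 ± 0.22 (SE). The kinase gene smg1 of nonsense-mediated decay and ap2a1, an adaptor subunit gene of clathrin coats, differed by -0.08 ± 0.25 and -0.08 ± 0.36 (SE). The lowest adjusted p of the 4 was 0.90 (limma).

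The other 6 neighbouring features were too low to be tested. The glycolate oxidase gene hao1 averaged 10.6 and 11.97 normalized reads in the LS_L and HS_L groups for the first of its overlapping features, XM_008330506.1, and the second, XM_008330507.1, was listed at 0. The channel gene trpm4a averaged 13.5 and 9.31 normalized reads, and fbxl16, LOC103393508 and XR_523025.1 averaged below 3 in both groups.

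**Figure D5:**
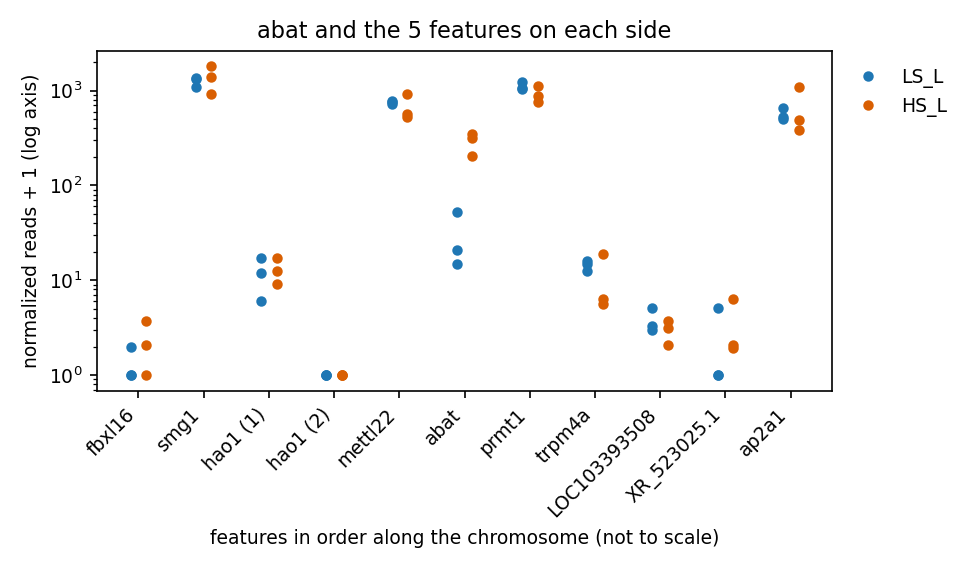
Normalized reads plus 1 (log axis) of abat and the 5 features on each side, in chromosomal order and not to scale, with 1 point for each library. The groups of mettl22 and prmt1, the nearest expressed neighbours, overlap, and those of abat do not.

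The features whose pattern over the 6 libraries was most like that of abat were found by Pearson's r on log2 of scaled RPKM plus 1, among 9301 features. The 6 libraries share the division into salinity groups, and 72 features had an r of 0.9 or more and 164 an r of -0.9 or less. The 10 highest ranged from 0.97 to 0.99. They were fbxl2, a ubiquitin ligase F-box gene, nlrc5, a regulator of MHC class I genes in mammals, fzr1b, an activator of the anaphase-promoting complex, nt5dc2, npr1a, a natriuretic peptide receptor gene, LOC103390832, LOC103396490, LOC103385163, LOC103393909 and Novel00240. Of these 10, 4 were on the study's list of DEGs. That list was drawn from the same libraries and salinity groups, so the count is not independent of this ranking. Among the 10, only Novel00240 lies on chromosome 17. The receptor gene npr1a stood at 232, 248 and 222 normalized reads at 15 ppt and 662, 737 and 635 at 30 ppt. Its r was 0.97, and 0.51 once the group means were removed. The low feature Novel00240 was at 14.9, 9.004 and 6.92 normalized reads in LS_L, compared with 24.7, 29.9 and 19.1 in HS_L. It followed the order of abat in all 6 libraries and kept an r of 0.98 after the group means were removed. That order was shared by 16 of the 9301 features, LOC103385163 also among them.

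The 5 features with the most opposite pattern had r between -0.997 and -0.985. They were sall1a, a zinc finger transcription factor gene, aacs, XM_008333941.1, lzic and eftud2, a gene of the spliceosome. The levels of sall1a were 2821, 3198 and 3231 normalized reads in the LS_L pools, against 1451, 1350 and 1735 in HS_L, in exactly the reverse order of abat. The log2 difference of sall1a was 0.98 ± 0.19 (SE), with an adjusted p of 0.31 (limma). These correlations describe 6 libraries that share their group structure, and they carry no test.

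The deposited transcript events, which list starts, ends and splicing of assembled transcripts with their FPKM, gave no second measurement of abat. None of the 37473 to 39255 events in each library lay within abat on its strand, was listed under its transcript or overlapped its position. Each library listed 658 to 683 events on chromosome 17, but none between 1516992 and 14753166, a stretch of 13.2 Mb that holds abat. In the same stretch lie 1322 features, of which 806 had reads and 385 were tested. Stretches of over 3 Mb without an event were found on 18 chromosomes in each library, so the lack of events at abat is no measure of its level or its splicing.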

How the data were processed

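Liver RNA from 3 LS_L and 3 HS_L tank pools was sequenced by the authors, aligned with TopHat (TopHat2 2.0 and Bowtie2 2.0.6 in the submitters' processing notes, which also name DESeq), and counted per feature with HTSeq in union mode after reads mapping to several places were removed. Reads shared by overlapping features are then lost: 70.0% of features with a same-strand overlap were at 0 in every library, and 7.97% of the others. The deposited RPKM table holds 1 column per library. A deposited signal per group, the authors' mean of normalized reads, and the feature lengths are in a second table. The deposited event files give the authors' FPKM for each transcript event. The tool that made them is not given in the sources used here. The study's list of DEGs served to mark members, to name features and, through its gene descriptions, to match members of the lists. Descriptions were read for the DEGs alone, so a match by description could add only a gene the study had called. The fold changes and p-values of that list were not used.

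RPKM times length gave back whole reads (tolerance 0.02), from which median-of-ratios size factors were computed. The main test was limma (lmFit, then robust eBayes with a trend) on log2(scaled RPKM + 1), restricted to the 9302 features whose mean scaled RPKM was 1 or more, with Benjamini-Hochberg adjustment. Fold changes understate low genes on this scale. On simulated data for this comparison (9302 features, 200 changed by a log2 fold of 2) 183 were called (91.5%), with 6 false calls. The changed features were drawn only from those with more reads, at a fixed dispersion of 0.1 and without outlying pools. The share called is therefore no measure of how many real differences the test finds in these libraries. Same-number libraries deviated together (r 0.17, 0.17 and 0.23), so the replicate number was also fitted as a block; 3 of the 6 crossed pairs also passed 0.1, at 0.12, 0.16 and 0.22. Other alternatives were library-size scaling, upper-quartile factors, a pseudocount of 0.1, limma-voom, no filter, a minimum of 10 reads per library and each library left out. Names came from RefSeq accessions (20016 features), positions (10707), symbols (182) or the study's table (11), and 3835 were not matched. Genes named are abat, detected GABA genes (above 3 normalized reads on average), other pathway genes at an unadjusted p below 0.05 with a few of their route, 5 neighbours on each side, and the 10 most like and 5 most opposite features. The gene and the lists were chosen with earlier results of these data known. Software was Python 3.11.15 (matplotlib 3.10.9, numpy 2.4.6, pandas 2.3.3 and scipy 1.17.1) and R 4.3.3 (limma 3.58.1).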

Additional observations from a re-analysis of the deposited data

How the results depend on the processing

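The log2 difference of abat kept its sign under all 13 alternatives, which the 4.00-fold gap between its groups left little room to change. It was -3.31 with a pseudocount of 0.1 and -3.45 with limma-voom, where less is added to low values. With a library left out it was -2.10 to -2.47. The 4 features called in the whole table became 7 with at least 10 reads in every library, 10 with library size only, 1 with no filter, 2 with upper-quartile factors, 0 with the replicate block and 0 to 17 with a library left out. The 612 at an unadjusted p of 0.05 became 1022 with no filter, where more features are tested, and 332 to 705 with a library left out. Pathway features at that p numbered 3 to 8 higher and 1 to 5 lower with a library left out, and 7 were lower with the replicate block. Those called over all features were 2 with library size only and 0 to 3 with a library left out. The replicate block gave 788 features at an unadjusted p of 0.05 in the whole table, beside 612. Of the 10 features most like abat, 1 was among the first 10 by Spearman's rho, where ties are many, 7 with a pseudocount of 0.1 and 4 with library size only. With a library left out, log2 differences turned for odc1 (-0.23 to 0.90, negative without HS_L_3), glud1a (-0.58 to 0.37, positive without HS_L_2 or LS_L_1) and the second slc6a13 feature (-0.68 to 0.19, positive without LS_L_1), none of which passed the test with all libraries. With 12 to 62 reads of abat in the LS_L libraries, its level in each is known no better than the counting intervals given above. Those intervals leave out the spread between tank pools.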
